A study of Mus musculus with 61 samples.

Results

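The TALE cofactors of Hox proteins were followed through RNA-seq of mouse stembryos, aggregates of embryonic stem cells that elongate in culture into a structure resembling the posterior body axis. The 8 genes were taken by symbol from the expression table, Meis1, Meis2, Meis3, Pbx2, Pbx3, Pbx4, Pknox1 and Pknox2, out of 55052 genes, and all 8 were listed and passed the filter on low values. TALE proteins are homeodomain proteins with an extended loop in the homeodomain. PBX proteins bind DNA together with HOX proteins and sharpen their choice of site, MEIS and PKNOX (also called PREP) proteins dimerize with PBX and carry it into the nucleus, and MEIS proteins can also bind next to posterior HOX proteins. In the embryo, these factors are needed for HOX proteins to pattern the hindbrain and the trunk.

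The 61 libraries fell into 28 groups. All groups were stembryos grown from mouse embryonic stem cells and given a pulse of the Wnt agonist Chiron between 48 h and 72 h after aggregation, and each library was a pool of stembryos. From 108 h onward, only stembryos with an elongating shape had been collected. A wild-type time course held 2 libraries at each of 8 stages (every 12 h from 72 h to 144 h, and 168 h). Outside the time course, wild-type controls comprised 4 libraries for 96 h, 4 for 120 h and 2 for 144 h. The 8 mutant genotypes carried changes at the HoxD cluster on chromosome 2, with 2 libraries per stage, or 3 for Del(sub-TAD1) at 96 h. Del(CBS1), Del(CBS2) and Del(CBS4) each lacked 1 CTCF binding site (CBS), Del(CBS1-2) was made by removing CBS2 from Del(CBS1) cells, and Del(CBS1-5) lacked a series of such sites. Del(d1-d4) lacked Hoxd1, Hoxd3 and Hoxd4. Ins(2xCBS-d4d8) carried an added cassette with 2 CTCF sites, and Del(sub-TAD1) lacked the neighbouring regulatory sub-TAD1 with Mtx2, rescued by a fosmid transgene. Most lines were clones of the wild-type EmbryoMax 129/SVEV cells, but 2 lines, Del(sub-TAD1) and Del(CBS1-5), came from blastocysts of mice with those deletions, and in them the mutation and the origin of the cells cannot be told apart. Mutants were sampled at 96 h and 120 h, except that Del(CBS4) was first sampled at 120 h and that 144 h was sampled for it and for Del(CBS1-5). The study describes its replicates as biological, the labels do not say which libraries came from separate cultures, and p-values measure the spread between these libraries.

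Levels are given as FPKM, a fragment count corrected for transcript length and for the mapped fragments of each library. Because FPKM is per length, levels of different genes can be set side by side. Differences were tested with limma on log2(FPKM + 0.1) over 17098 genes, and a gene was called at a Benjamini-Hochberg adjusted p under 0.05. Fold changes are on this log2 scale, which understates changes of low genes.

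Several facts of the libraries touch the results. The depth inferred from the values was 14.8 to 39.0 M mapped fragments (M for 1e6). The libraries formed 2 sets, which were inferred from the values and which the labels neither name nor explain. Predicted genes took 12.5% to 17.7% of the summed FPKM in 28 libraries (set 1) and 1.23% to 4.41% in 33 (set 2). Set 1 held replicates 1, 2 and 3 of the 96 h and 120 h controls and most mutant libraries. Set 2 held the time course, replicate 4 of those controls, all 144 h libraries, and, of the mutants, also Del(CBS4), the 96 h libraries of Del(sub-TAD1), and Ins(2xCBS-d4d8). An age was estimated for each library by matching it to the time course: at 96 h, the wild-type libraries matched 99 h to 101 h, except replicate 3, which matched 92 h. The deleted genes Hoxd1, Hoxd3 and Hoxd4 were listed at 0 in all 4 Del(d1-d4) libraries and reached at least 1.69, 10.3 and 20.6 FPKM in the 10 wild-type controls.

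All 8 genes lie away from the HoxD cluster, on other chromosomes or, for Meis2 and Pbx3, elsewhere on chromosome 2. In mm10, Meis1 covers chr11:18879817-19018985, Meis2 chr2:115863064-116065839, Meis3 chr7:16175090-16186504, Pbx2 chr17:34591266-34597400, Pbx3 chr2:34171457-34373142, Pbx4 chr8:69832491-69872292, Pknox1 chr17:31564734-31607693 and Pknox2 chr9:36890982-37147407. The values are for whole genes, summed over 5 to 19 annotated transcripts each. Genes that overlap them on either strand were low, the highest being AC166575.1 within Pknox1 at up to 2.99 FPKM and Gm16141 opposite Meis1 at up to 1.05 FPKM, while the protein-coding Gpsm3, which shares its strand with Pbx2, was listed at 0.

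Promoter windows of 300 bases, from 250 before to 50 after the start in RefSeq on GRCm38.p6, were given for 5 of the 8 genes, Meis1, Meis2, Meis3, Pbx2 and Pbx4, and were searched on both strands for 5 motifs chosen for the factors of this system. Each gene had a single window, so that its other annotated starts were not searched. The windows of Meis2, Meis3 and Pbx2 lay wholly inside the annotated gene. The MEIS motif TGACAG, held by 19.2% of 32851 windows, the PBX-HOX motif TGATTNAT (3.22%), the TCF-LEF motif CTTTGAT of Wnt signalling (3.73%) and a repeat of the retinoic acid receptor site (3 windows in all) were in none of the 5. The CDX motif TTTATNG, held by 10.9% of all windows, was in those of Meis2 (position -213 from the start, chr2:116064816-116064842, minus strand) and Pbx4 (position -33 from the start, chr8:69832581-69832607, plus strand). They are shown because they were the only matches, with the motif in capitals.
Meis2: catccaggagTTTATTGgagcgcagac
Pbx4: aaaagggcgtTTTATTGgctagtggac
A match of this length describes the sequence and is not a site of binding.

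Across the time course, the 3 MEIS genes rose between 72 h and 168 h. Meis1 and Meis2 both rose over the steps to 84 h and to 96 h, from a much lower level in Meis1, and Meis3 rose, fell and rose again. Pbx2 also rose and was the most abundant of the 8 genes in 59 of 61 libraries, Pbx3 fell, and Pknox2 rose early and again later, to its highest level at 132 h. Of 56 tests over the 7 steps between neighbouring stages, 14 were called (12 higher, 2 lower), where 10.2% of all tests over all genes were called (5.43% higher, 4.75% lower). From 72 h to 168 h, 7 of the 8 genes were called (6 higher, 1 lower), where 48.2% of all genes were called (25.3% higher, 22.9% lower).

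**Figure D1:**
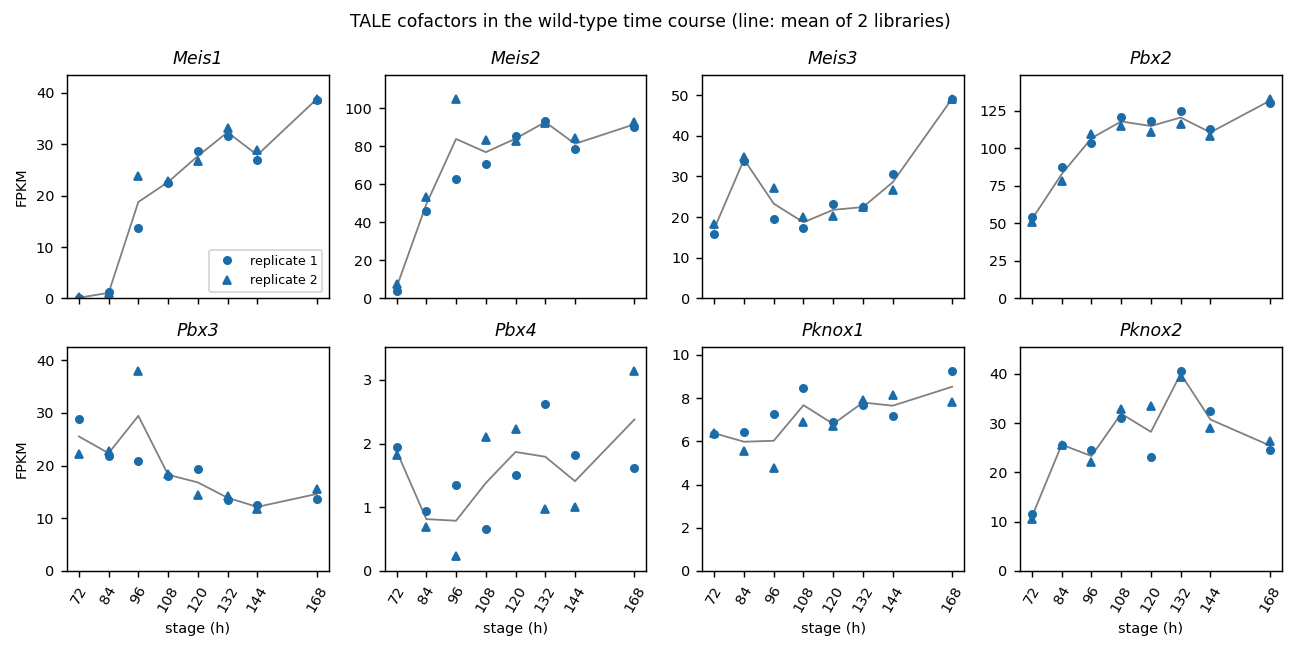
FPKM of each TALE cofactor (vertical axes, each from 0 with its own range) against the stage in hours after aggregation, with a point for each of the 2 libraries and a line through their mean. Meis1 goes from 0.0928 and 0.204 FPKM at 72 h to 38.7 and 38.9 at 168 h, and Pbx3 goes the other way, from 28.9 and 22.1 to 13.6 and 15.6.

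Meis1, a partner of HOX and PBX proteins in limb, blood and trunk, was close to 0 at the end of the Chiron pulse. It was at 0.0928 and 0.204 FPKM in the 2 libraries at 72 h, with cufflinks 95% intervals of 0.00319 to 0.182 and 0.0677 to 0.34. It reached 1.18 and 1.02 FPKM at 84 h, and 13.8 and 23.8 FPKM at 96 h. Each stage lay above the one before, without overlap, up to 96 h. The step to 84 h was a log2 change of 2.30 ± 0.24 (SE, adjusted p = 2.56e-09, 16.3% of all genes called) and the step to 96 h one of 3.93 ± 0.24 (adjusted p = 1.3e-14, 20.7% of all genes called). No later step of Meis1 was called. Its libraries lay at 22.4 and 22.9 FPKM at 108 h, 28.8 and 26.7 at 120 h, 31.6 and 33.1 at 132 h, 26.8 and 29.0 at 144 h and 38.7 and 38.9 at 168 h. The whole change from 72 h was 7.33 ± 0.24 on the log2 scale (adjusted p = 1.15e-23). Since the starting level is near the pseudocount, these sizes depend on it: the whole change was 5.12 with a pseudocount of 1 FPKM and 8.03 with 0.01 FPKM, and the step to 84 h was 0.87 and 2.90.

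Meis2, a close relative of Meis1 that marks somites, neural tissue and neural crest, was the higher of the pair at every stage. Its libraries held 4.16 and 7.59 FPKM at 72 h, 45.8 and 53.4 at 84 h, and 62.6 and 105.2 at 96 h. The rise to 84 h was 3.11 ± 0.18 on the log2 scale (adjusted p = 2.58e-15), and the further rise to 96 h was 0.71 ± 0.18 (adjusted p = 0.00415). The second rise was not called without replicate 2 of the time course (0.45, adjusted p = 0.139), nor with both libraries when only the time course entered the fit (0.71, adjusted p = 0.139). From 108 h to 168 h the libraries of Meis2 ranged between 70.6 and 93.2 FPKM, and none of these steps was called. At 84 h, Meis2 therefore stood at 39.0 and 52.5 times the FPKM of Meis1, a ratio of 45.8 ± 9.60 (SD, n = 2). The ratio was 4.49 ± 0.0836 (SD, n = 2) at 96 h and 2.36 ± 0.0415 (SD, n = 2) at 168 h.

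Meis3, which acts with HOX factors in the hindbrain, was the leading MEIS gene at 72 h and followed another course. It was at 15.9 and 18.4 FPKM at 72 h and at 33.7 and 34.7 at 84 h, a rise of 0.99 ± 0.17 (log2, SE, adjusted p = 3.41e-05). At 96 h it was back at 19.5 and 27.2 FPKM, below both libraries of 84 h (log2 change -0.57 ± 0.17, adjusted p = 0.012). This fall was not called without replicate 1 of the time course (-0.35, adjusted p = 0.439). Its libraries then stayed between 17.4 and 30.6 FPKM from 108 h to 144 h. At 168 h it was at 49.1 and 49.2 FPKM, above every other library of the time course, and the step from 144 h was 0.78 ± 0.17 (log2, adjusted p = 0.00144, 9.87% of all genes called). Without replicate 2 this last step was 0.68 (adjusted p = 0.121).

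The makeup of MEIS transcripts shifted with these steps. The summed FPKM of the 3 genes was 23.2 ± 4.24 (SD, n = 2) at 72 h, 84.9 ± 5.91 at 84 h and 179.6 ± 2.08 at 168 h. Meis3 made up 74.6% of it at 72 h, and 15.2% at 132 h. Meis2 went from 24.8% at 72 h to 66.4% at 96 h and 51.0% at 168 h. Meis1 was 0.619% at 72 h, 1.299% at 84 h, 14.8% at 96 h and 21.6% at 168 h. After 96 h the share of Meis1 thus stayed between 18.1% and 22.4% in all 10 libraries, while those of Meis2 and Meis3 moved in opposite directions between 132 h and 168 h.

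**Figure D2:**
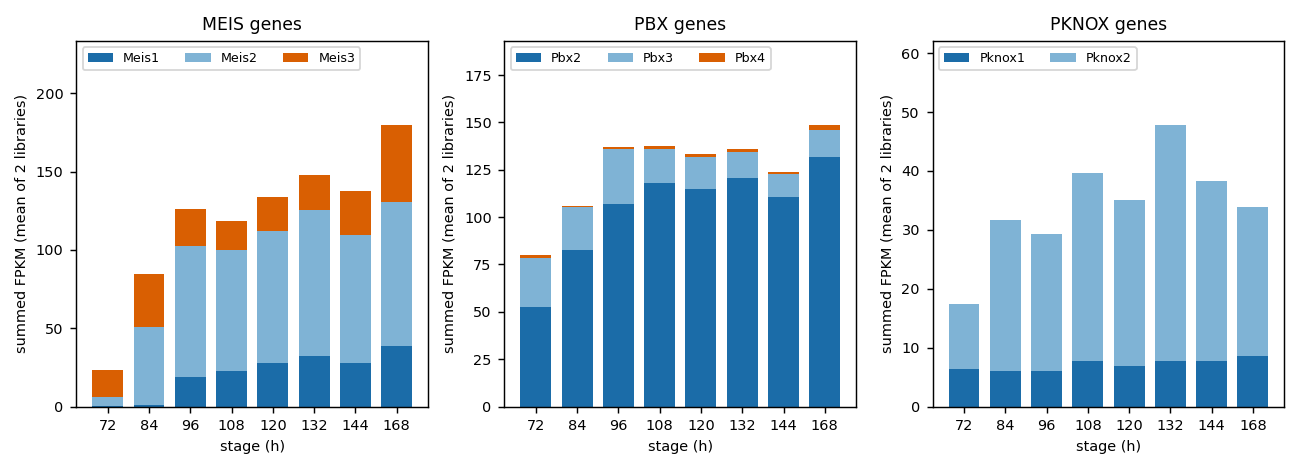
Stacked mean FPKM (2 libraries, vertical axes from 0) of the 3 MEIS, 3 PBX and 2 PKNOX genes at each stage of the time course. Meis3 makes up 74.6% of the MEIS bar at 72 h and Meis2 66.4% at 96 h, while Pbx2 takes 66.0% of the PBX bar at 72 h and 88.6% at 168 h.

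Among the PBX genes, Pbx2 and Pbx3 moved in opposite directions. Pbx2, a broadly expressed PBX gene, was at 54.4 and 51.2 FPKM at 72 h, 87.4 and 78.1 at 84 h, and 103.7 and 109.7 at 96 h. The first step was 0.65 ± 0.11 on the log2 scale (adjusted p = 1.93e-05) and the second 0.37 ± 0.11 (adjusted p = 0.00981), the latter not called without replicate 2 (0.25, adjusted p = 0.438). Its 10 later libraries lay between 108 and 133 FPKM. Pbx3, which patterns the nervous system and other organs with the other PBX genes, was at 28.9 and 22.1 FPKM at 72 h and at 20.9 and 37.9 at 96 h. These last libraries differed by more than those of any other stage for this gene. At 108 h, Pbx3 was at 18.1 and 18.4 FPKM, a log2 change of -0.62 ± 0.17 (adjusted p = 0.0142, 9.45% of all genes called), which was -0.21 (adjusted p = 0.837) without replicate 2, the high library at 96 h. It was also not called when only the time course entered the fit (-0.62, adjusted p = 0.226). Over the whole course Pbx3 fell by 0.79 ± 0.17 on the log2 scale (adjusted p = 0.00016), to 13.6 and 15.6 FPKM at 168 h.

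Pbx4, best known from the testis, was the lowest of the 8 genes in 59 of 61 libraries, with 0.233 to 3.14 FPKM in the time course. Its 2 libraries were as far apart as 1.34 and 0.233 FPKM at 96 h and 2.61 and 0.972 at 132 h, and none of its 7 steps was called. Its change from 72 h to 168 h was 0.25 ± 0.56 (log2, adjusted p = 0.83). Pbx2 made up 66.0% ± 3.02 (SD, n = 2) of the summed FPKM of these 3 PBX genes at 72 h and 88.6% ± 1.296 at 168 h, and Pbx3 31.7% ± 3.13 and 9.82% ± 0.620.

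The 2 PKNOX genes, which compete with MEIS for PBX, differed in course. Pknox1, which is needed in the early embryo, ranged only from 4.78 to 9.26 FPKM in the time course. It was called higher at 108 h than at 96 h (0.37 ± 0.12, adjusted p = 0.0459), although the libraries overlapped, with 7.27 and 4.78 FPKM at 96 h and 8.48 and 6.88 at 108 h, and without replicate 2 the step was 0.22 (adjusted p = 0.508). It was also not called when only the time course entered the fit (0.37, adjusted p = 0.327), without the filter on low values (adjusted p = 0.0725) or with upper-quartile scaling (adjusted p = 0.0819). From 72 h to 168 h its change was 0.41 ± 0.12 (adjusted p = 0.00426), and it was not called without replicate 1 (0.28, adjusted p = 0.0631) or when only the time course entered the fit (0.41, adjusted p = 0.105). Pknox2 was at 11.5 and 10.5 FPKM at 72 h and at 25.6 in both libraries at 84 h, a log2 rise of 1.21 ± 0.13 (adjusted p = 1.32e-08). It was at 24.5 and 22.1 FPKM at 96 h and at 31.0 and 32.7 at 108 h, a rise of 0.45 ± 0.13 (adjusted p = 0.0269). That step was not called without replicate 2 (0.34, adjusted p = 0.486), with upper-quartile scaling (0.45, adjusted p = 0.0816) or when only the time course entered the fit (0.45, adjusted p = 0.131).

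At 120 h, the libraries of Pknox2 lay apart, at 23.0 and 33.4 FPKM, and at 132 h they were at 40.5 and 39.4, its highest in the series. The step between them was 0.53 ± 0.13 (log2, adjusted p = 0.0265, 2.46% of all genes called), and it was not called without replicate 1 (0.24, adjusted p = 1), with upper-quartile scaling (0.51, adjusted p = 0.105) or when only the time course entered the fit (0.53, adjusted p = 0.175). By 168 h, Pknox2 was at 24.6 and 26.3 FPKM, below both libraries of 144 h (32.5 and 28.9), but the difference of -0.27 ± 0.13 was not called (adjusted p = 0.242). The plot of FPKM by stage shows this hump for Pknox2 beside the lasting rise of Meis1 and Pbx2. Across the 2 remaining steps, from 108 h to 120 h and from 132 h to 144 h, none of the 8 genes was called, where 7.06% and 5.42% of all genes were called.

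Cell type markers moved over the same stages, and since these are bulk samples, fewer cells of a type and less RNA per cell cannot be told apart. The summed FPKM of 6 pluripotency markers was 1303 to 1311 at 72 h and 44.0 to 55.4 at 168 h. That of 6 somite markers was 1.65 to 2.55 at 72 h and 74.3 to 82.8 at 168 h, and that of 6 spinal cord markers 5.26 to 6.59 and 180.6 to 186.2. Of the tested members, 2 of 6 pluripotency markers were called lower from 72 h to 168 h, 5 of 6 somite markers and 6 of 6 spinal cord markers higher, and, among neuro-mesodermal progenitor markers, 4 of 6 lower and 1 higher. In presomitic mesoderm 4 of 6 were lower and 1 higher, in endoderm 2 of 6 lower and 1 higher, in endothelium 4 of 6 higher and in cardiac cells 2 of 5 higher. Over the same span 48.2% of all genes were called (25.3% higher, 22.9% lower). The part of these markers in the changes of the TALE cofactors was not tested.

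The other TALE genes and known targets of HOX-PBX-MEIS complexes were counted for comparison. Of 9 other TALE genes, 7 passed the filter and all 7 were called from 72 h to 168 h, where 48.2% of all genes were called. The Iroquois genes Irx1, Irx2, Irx3 and Irx5, which act in neural patterning, rose, as did Tgif2, whereas Tgif1, a repressor of TGF-beta signalling like Tgif2, and Mkx, a tendon factor, fell. Irx3 showed the largest change of these 7, from 1.27 to 51.8 FPKM (means of 2 libraries, log2 change 5.67). Over the 7 steps, 9 of 49 tests of these genes were called, where 10.2% of all tests over all genes were called. All 6 targets were called over the same span, 5 higher and Hoxb1 lower, and 11 of 42 tests over the steps. Between 72 h and 84 h, 5 of the 6 targets were called higher, where 16.3% of all genes were called in either direction. Over that step Meis2, Meis3, Pbx2 and Pknox2 rose, and Meis1 was still at about 1 FPKM. The target without a call was Pax6, which went from 0.118 FPKM at 72 h to 39.9 at 168 h.

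The wild-type controls outside the time course gave independent libraries for the later stages. From 96 h to 120 h, 4 of the 8 genes were called, where 27.1% of all genes were called, and from 120 h to 144 h 3 of 8, where 38.2% were called (32.6% over both steps). Meis1 was at 18.6, 16.5, 11.1 and 23.7 FPKM in replicates 1 to 4 at 96 h, at 23.8, 24.6, 21.5 and 31.7 at 120 h, and at 37.8 and 38.2 at 144 h. Its rise was 0.58 ± 0.17 (log2, SE, adjusted p = 0.00848) over the first step, where the groups overlapped, and 0.60 ± 0.21 (adjusted p = 0.0206) over the second, where they did not. Both 144 h controls were of set 2, while at 120 h only replicate 4, the highest there for Meis1, was of that set. Stage and library set are therefore largely confounded in the second step, for every gene. Each of replicates 1 to 4 was higher at 120 h than at 96 h. The second step was not called without replicate 1 (0.58, adjusted p = 0.145) or replicate 2 (0.58, adjusted p = 0.154).

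Pbx3 was lower at 120 h, with 22.1, 19.9, 15.96 and 23.3 FPKM at 96 h against 12.1, 12.05, 11.7 and 12.8 at 120 h, a log2 change of -0.72 ± 0.12 (adjusted p = 1.12e-05). Pbx4 was higher, also without overlap, with 0.496 to 0.722 FPKM at 96 h and 1.51 to 1.81 at 120 h (1.35 ± 0.40, adjusted p = 0.00929). Pknox1 rose over both steps, by 0.32 ± 0.08 (adjusted p = 0.00325) and by 0.36 ± 0.10 (adjusted p = 0.00553), the second not called without replicate 1 (0.36, adjusted p = 0.066) or replicate 2 (0.36, adjusted p = 0.0747). Meis3 did not rise until the second step, from 16.5, 16.7, 23.0 and 27.5 FPKM at 120 h to 39.5 and 38.2 at 144 h (0.92 ± 0.15, adjusted p = 8.41e-06). For Meis3 and Pknox1, too, replicate 4, of the same library set as the 144 h controls, was the highest at 120 h. Same-numbered controls of 96 h and 120 h deviated together, and so did replicates 1 and 2 across numbers. With the replicate block 2 more genes were called over that step: Pbx2 (0.18, adjusted p = 0.0319, against 0.0643 without the block) and Pknox2 (0.22, adjusted p = 0.0101, against 0.0919).

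At 144 h, the controls and the time course differed in their levels. Meis1 was at 37.8 and 38.2 FPKM in the controls and at 26.8 and 29.0 in the time course, and Meis3 at 39.5 and 38.2 against 30.6 and 26.6, so that in both genes the 2 pairs of libraries did not overlap. The controls labelled 144 h matched an estimated age of 157 h. The time-course libraries matched 144 h, but the reference was made from these same libraries, so that their match was given in advance. The difference in levels was not tested.

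The 17 mutant comparisons set each mutant against the wild-type controls of its stage, so that mutants of 1 stage shared their controls. They ask whether changes at the HoxD cluster go with changes of the cofactors. Of 136 tests, 13 were called (9.56%; 8 higher, 5 lower), where 12.1% of all tests over all genes were called (5.91% higher, 6.21% lower). The calls fell on Meis1 (3, all lower), Meis3 (4, all higher), Pknox1 (3, all higher), Pknox2 (2, both lower) and Pbx2 (1, higher). No call fell on Meis2, Pbx3 or Pbx4. In 9 of the 17 comparisons none of the 8 genes was called, and in 4 of these, Del(CBS1-2), Del(CBS1-5) and Ins(2xCBS-d4d8) at 120 h and Del(CBS4) at 144 h, 2.35%, 13.3%, 26.9% and 2.05% of all genes were called.

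**Figure D3:**
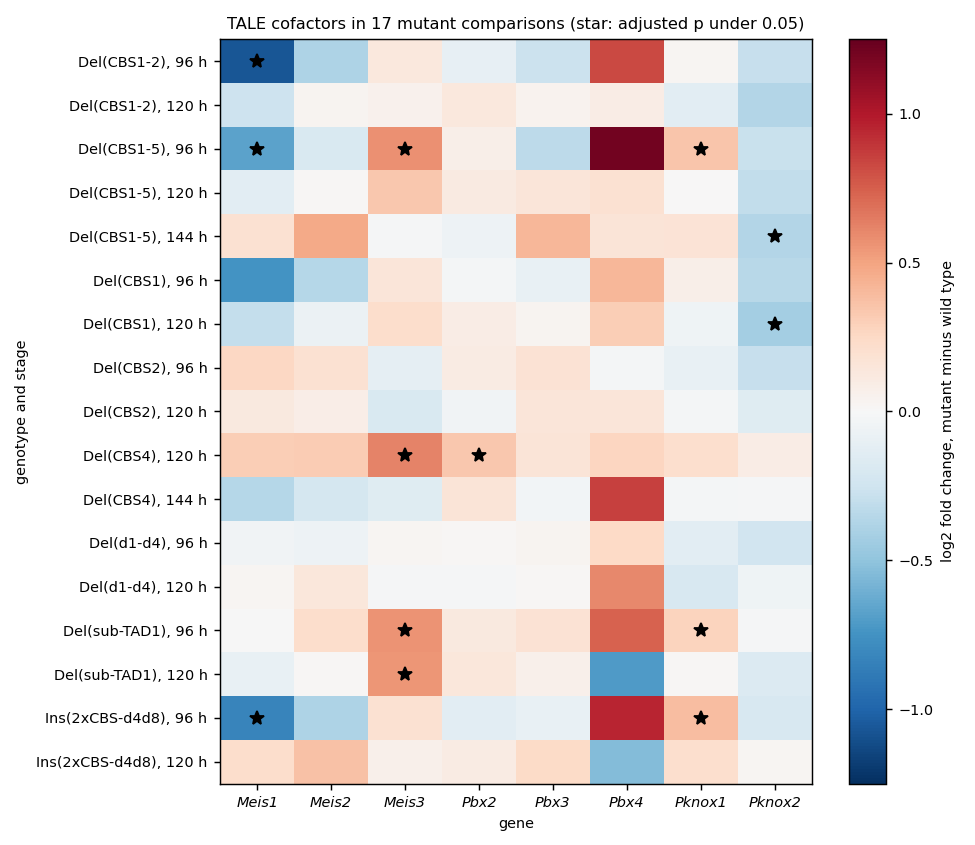
Log2 fold change of each TALE cofactor (columns) in each of the 17 mutant comparisons (rows), red for higher and blue for lower in the mutant, with a star at an adjusted p under 0.05. The 13 stars include 3 blue cells of Meis1, all at 96 h, and 4 red cells of Meis3.

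Meis1 was lower in several mutants at 96 h, when it is rising in wild type. Against wild-type values of 18.6, 16.5, 11.1 and 23.7 FPKM, Del(CBS1-2) held 8.16 and 7.75 FPKM, Del(CBS1-5) 10.3 and 10.8, and Ins(2xCBS-d4d8) 7.46 and 11.98. Both libraries of the 2 deletions lay below every control, while 1 library of the insertion lay above the lowest control. The log2 change was -1.07 ± 0.21 (adjusted p = 0.002, 4.49% of all genes called) in Del(CBS1-2), -0.67 ± 0.21 (adjusted p = 0.0243, 14.8% called) in Del(CBS1-5) and -0.83 ± 0.21 (adjusted p = 0.00372, 27.9% called) in Ins(2xCBS-d4d8). Del(CBS1), the parent of Del(CBS1-2), held 10.2 and 9.79 FPKM, also below every control, but its change of -0.75 ± 0.21 was not called (adjusted p = 0.06, 1.23% called). It was called without wild-type replicate 3 (-0.95, adjusted p = 0.00835).

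The other mutants at 96 h held Meis1 at control levels. Del(CBS2) was at 20.7 and 19.6 FPKM, Del(d1-d4) at 15.7 and 17.1, and Del(sub-TAD1) at 22.4, 15.4 and 13.8, all within the range of the controls. At 120 h and 144 h no mutant was called for Meis1. At 120 h, Del(CBS1-2) was at 21.2 and 20.6 FPKM and Del(CBS1) at 19.6 and 21.3, below all controls (21.5 to 31.7). The other lines of that stage overlapped the controls. At 144 h, Del(CBS4) was at 30.2 and 29.1 FPKM, below the controls at 37.8 and 38.2, and Del(CBS1-5) at 42.5 and 44.2, above them. The difference in effect between stages was not called for Meis1 in any of the 9 pairs tested.

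Estimated ages and marker levels varied among the same 96 h libraries. Wild-type replicate 3, the lowest control at 11.1 FPKM, matched 92 h, both Del(CBS1-2) libraries 92 h, both Del(CBS1-5) libraries 90 h or 91 h, the Del(CBS1) libraries 100 h (10.2 FPKM) and 93 h (9.79 FPKM), and the Ins(2xCBS-d4d8) libraries 92 h (7.46 FPKM) and 100 h (11.98 FPKM). The Del(sub-TAD1) libraries matched 91 h or 92 h with Meis1 at control levels. The summed FPKM of 6 somite markers (Meox1, Meox2, Tcf15, Pax3, Uncx and Mesp2) was 94.4 to 324 in the controls, where replicate 3 was the lowest. It was 64.5 to 74.5 in Del(CBS1-2), 73.0 to 85.9 in Del(CBS1-5), 55.6 to 141.7 in Ins(2xCBS-d4d8) and 91.2 to 107.6 in Del(CBS1). It was 103.9 to 362.8 in Del(sub-TAD1), 145.3 to 147.0 in Del(d1-d4) and 183.6 to 184.2 in Del(CBS2). Of these 6 markers, 3 were called lower in Del(CBS1-2), 4 in Del(CBS1-5) and 2 in Ins(2xCBS-d4d8). In these comparisons 4.49%, 14.8% and 27.9% of all genes were called, and 1.23% in Del(CBS1). The summed FPKM of 6 neuro-mesodermal progenitor markers was 252.2 to 365.4 in the controls, 489.1 to 507.3 in Del(CBS1-2), 339.7 to 346.7 in Del(CBS1-5), 498.8 to 562.8 in Ins(2xCBS-d4d8) and 404.2 to 423.8 in Del(CBS1). Of these 6, none was called in Del(CBS1-2) or Del(CBS1), Sox2 was called higher in Del(CBS1-5), and Cdx2, Nkx1-2, Sox2 and T were called higher in Ins(2xCBS-d4d8). The part of these markers in the level of Meis1 was not tested. With the estimated age as a covariate, the change was -0.90 (adjusted p = 0.00754) in Del(CBS1-2), -0.77 (adjusted p = 0.00312) in Ins(2xCBS-d4d8) and -0.45 (adjusted p = 0.201) in Del(CBS1-5), and in Del(CBS1) it was called, at -0.70 (adjusted p = 0.0474).

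**Figure D4:**
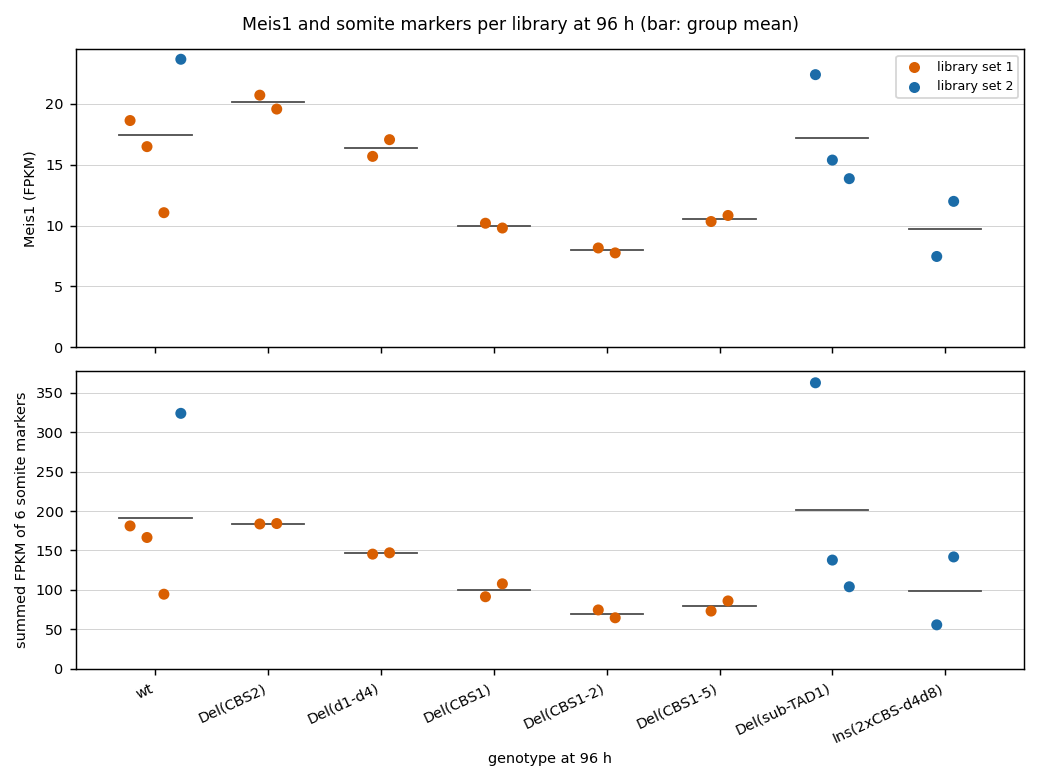
Meis1 in FPKM (top) and the summed FPKM of 6 somite markers (bottom) in each library at 96 h, by genotype and coloured by library set, with a bar at the group mean. The Del(CBS1), Del(CBS1-2), Del(CBS1-5) and Ins(2xCBS-d4d8) libraries lie between 7.46 and 11.98 FPKM for Meis1, and wild-type replicate 3 is low in both panels.

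Within a library set, the decrease of Meis1 held in 2 of the 3 mutants, with time-course libraries added to the set 2 controls. The set 1 controls were wild-type replicates 1, 2 and 3. Those of set 2 were replicate 4 (23.7 FPKM) and 2 time-course libraries (13.8 and 23.8). Against these, the change was -0.91 (adjusted p = 0.0178) in Del(CBS1-2) and -1.06 (adjusted p = 0.00114) in Ins(2xCBS-d4d8). In Del(CBS1-5) it was -0.50 and not called (adjusted p = 0.108). The Del(CBS1-5) decrease was also not called without wild-type replicate 1 (-0.62, adjusted p = 0.0751) or replicate 4 (-0.50, adjusted p = 0.0678). In Ins(2xCBS-d4d8), the change was -0.49 without mutant replicate 1 and -1.16 without replicate 2, and neither was called, as was the case for all 13 mutant calls when mutant replicate 1 or 2 was left out of every line.

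Meis2 showed the same sign in these mutants without being called. In Del(CBS1-2) it was at 54.2 and 52.9 FPKM, beside controls of 74.5, 68.5, 55.3 and 86.1 (-0.39 ± 0.16, adjusted p = 0.158), and in Ins(2xCBS-d4d8) at 49.3 and 58.2 (-0.39 ± 0.16, adjusted p = 0.0656). For Ins(2xCBS-d4d8), controls of its own library set were wild-type replicate 4 (86.1 FPKM) and 2 time-course libraries (62.6 and 105.2). Against these, its change of Meis2 was -0.63 and was called (adjusted p = 0.00607). In Del(CBS1-5) at 144 h, Meis2 was at 119.2 and 116.3 FPKM beside 83.9 and 85.3 in the controls, without overlap (0.48 ± 0.18, adjusted p = 0.0573, 23.7% of all genes called), and it was called against controls of its own set (0.51, adjusted p = 0.00562), to which 2 time-course libraries were added. Pbx3 was likewise higher there, with 16.7 and 16.1 FPKM beside 11.6 and 12.9 (0.42 ± 0.17, adjusted p = 0.0718), and was called against the same enlarged controls (0.42, adjusted p = 0.0294).

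Meis3 was higher in 4 comparisons that covered 3 lines. At 96 h, it was at 29.2 and 30.1 FPKM in Del(CBS1-5) and at 30.5, 29.4 and 28.3 in Del(sub-TAD1), beside wild-type values of 16.5, 16.9, 25.3 and 22.2. At 120 h, it was at 31.0 and 29.0 FPKM in Del(sub-TAD1) and at 29.8 and 33.3 in Del(CBS4), beside 16.5, 16.7, 23.0 and 27.5. In each case all mutant libraries lay above all controls. The wild-type replicates 1 and 2 lay far below replicates 3 and 4 at both stages.

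The change of Meis3 was 0.57 ± 0.15 (log2, adjusted p = 0.00627) in Del(CBS1-5) and 0.56 ± 0.13 (adjusted p = 0.000945, 40% of all genes called) in Del(sub-TAD1) at 96 h. At 120 h it was 0.55 ± 0.15 (adjusted p = 0.0171, 6.15% called) in Del(sub-TAD1) and 0.62 ± 0.15 (adjusted p = 0.00141, 37.5% called) in Del(CBS4). With the set 1 controls, wild-type replicates 1, 2 and 3, the calls of Del(CBS1-5) at 96 h (0.63, adjusted p = 0.00487) and Del(sub-TAD1) at 120 h (0.69, adjusted p = 0.00294) held. The set 2 controls were wild-type replicate 4 and 2 time-course libraries. They held 22.2, 19.5 and 27.2 FPKM at 96 h and 27.5, 23.2 and 20.4 at 120 h. Against these, the calls of Del(sub-TAD1) at 96 h (0.37, adjusted p = 0.0618) and Del(CBS4) (0.42, adjusted p = 0.0611) did not hold. The Del(sub-TAD1) call at 120 h was not made without wild-type replicate 1 (0.45, adjusted p = 0.0663) or replicate 2 (0.45, adjusted p = 0.0691), or with upper-quartile scaling (0.46, adjusted p = 0.078). Both lines derived from blastocysts were among these 3. In the remaining lines at 96 h and 120 h, Meis3 lay between 17.7 and 24.5 FPKM, and in Del(CBS1-5) at 120 h at 25.1 and 26.4.

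Markers of other cells moved in the same lines. In Del(CBS1-5), the summed FPKM of 6 pluripotency markers was 725 at 96 h and 777 to 862 at 144 h, beside 51.0 to 334.6 and 7.25 to 12.2 in the controls, and 5 of the 6 were called higher at both stages. At 120 h, where Meis3 was not called, it was 597 to 680.3 beside 36.2 to 325.7, and 4 of the 6 were called higher. In Del(sub-TAD1), 6 endoderm markers summed to 293 to 507 FPKM at 96 h and to 107.1 to 121.1 at 120 h, beside 62.7 to 160.4 and 20.4 to 188.8, and 6 of 6 and 5 of 6 were called higher. In Del(CBS4) at 120 h, 6 spinal cord markers summed to 42.8 to 67.9 FPKM beside 8.09 to 24.6, with 5 of 6 called higher, and 5 of 6 presomitic mesoderm markers were called lower. Their part in the level of Meis3 was not tested.

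**Figure D5:**
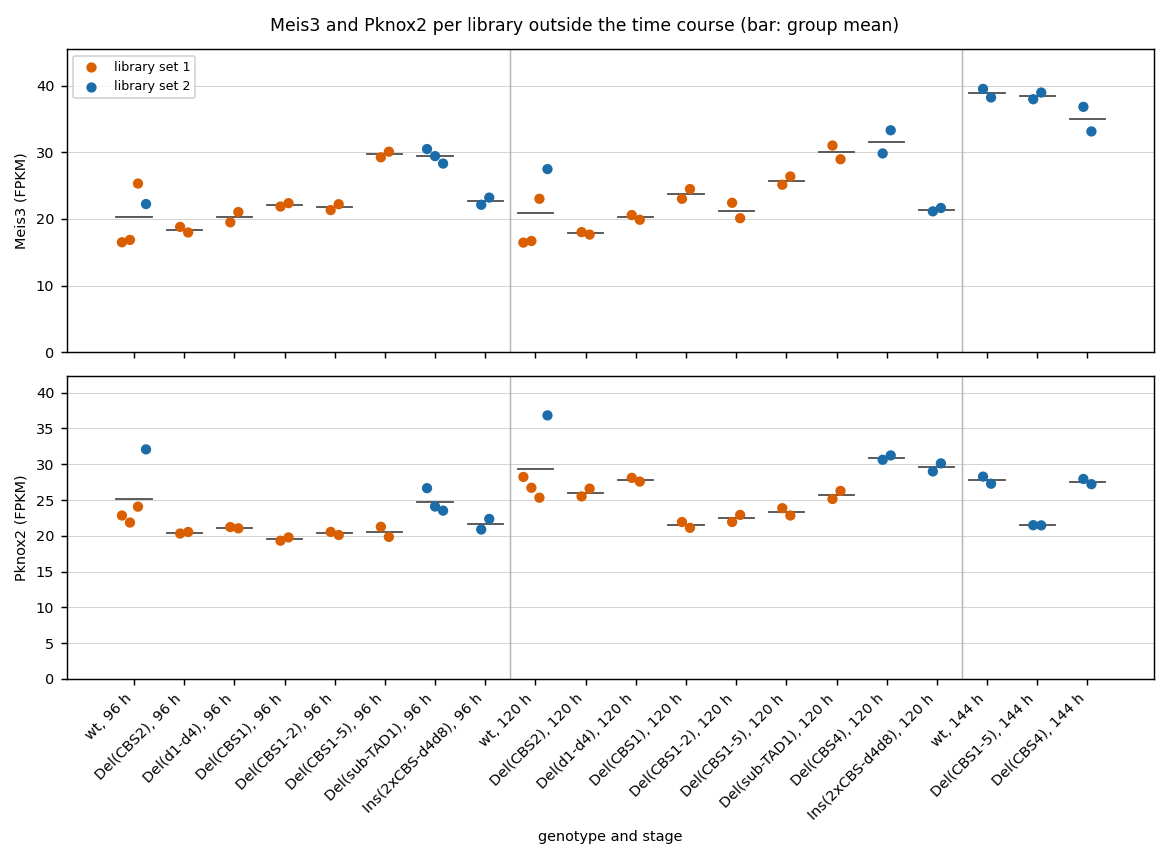
FPKM of Meis3 (top) and Pknox2 (bottom) in each library outside the time course, by genotype and stage, coloured by library set, with a bar at the group mean. For Meis3 the 96 h and 120 h wild-type controls spread from 16.5 to 27.5 FPKM, and for Pknox2 the single set 2 control of each stage lies highest, at 32.1 and 36.8 FPKM.

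The effect of Del(CBS4) on Meis3 differed between its stages. At 120 h the mutant lay above the controls, while at 144 h it was at 36.8 and 33.1 FPKM, below the controls at 39.5 and 38.2. The difference of the log2 changes, 144 h minus 120 h, was -0.78 ± 0.22 (adjusted p = 0.0257), the only call among 72 tests of such differences, where 4.43% of all tests over all genes were called, and 8.27% for Del(CBS4). It was not called with controls of its library set (-0.35, adjusted p = 0.448). At 144 h all controls were already of that set, and the time-course libraries, at 30.6 and 26.6 FPKM, were added. At 120 h, wild-type replicate 4 and the time-course libraries served as controls. With the estimated age as a covariate, the difference was -0.95 and not called (adjusted p = 0.131). Without wild-type replicate 1 or 2, which left 1 control library at 144 h, the difference was -0.65 or -0.70 and not called. The Del(CBS4) libraries matched 114 h and 128 h at 120 h and 127 h and 136 h at 144 h, while the 144 h controls matched 157 h.

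Pbx2 was called in Del(CBS4) at 120 h, with 129 and 123 FPKM beside 109.2, 104.0, 88.0 and 98.9 in the controls (0.33 ± 0.09, adjusted p = 0.00443). With the controls restricted to its library set, which included the time course, this was 0.20 and not called (adjusted p = 0.176). Pbx3 and Pbx4 were called in no mutant. For Pbx4 the log2 changes spread from -0.71 to 1.21 over the 17 comparisons, and its libraries differed widely within a group, with 1.06 and 3.81 FPKM in Del(CBS4) at 120 h.

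Pknox1 was slightly higher in 3 mutants at 96 h. Against 4.73, 4.90, 5.20 and 5.14 FPKM in wild type, it was at 7.06 and 5.72 in Del(CBS1-5), 5.56, 6.72 and 5.98 in Del(sub-TAD1) and 6.64 and 6.43 in Ins(2xCBS-d4d8). All 7 libraries lay above the 4 controls. The changes were 0.34 ± 0.10 (log2, adjusted p = 0.0209), 0.28 ± 0.09 (adjusted p = 0.0147) and 0.38 ± 0.10 (adjusted p = 0.00627). With the controls restricted to its library set, the first was called (0.36, adjusted p = 0.0287), and those of Del(sub-TAD1) (0.11, adjusted p = 0.546) and Ins(2xCBS-d4d8) (0.21, adjusted p = 0.236) were not. The 2 time-course libraries of the stage, which enter as controls of set 2, held 7.27 and 4.78 FPKM. Without wild-type replicate 1, the Del(CBS1-5) change was 0.32 (adjusted p = 0.0666) and the Del(sub-TAD1) change 0.25 (adjusted p = 0.0545), and without replicate 2 the Del(CBS1-5) change was 0.33 (adjusted p = 0.0523). With all libraries, the Del(CBS1-5) change was not called with upper-quartile scaling (0.27, adjusted p = 0.115) or with the estimated age as a covariate (0.34, adjusted p = 0.0677), nor the Del(sub-TAD1) change with median-ratio scaling (0.18, adjusted p = 0.127).

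Pknox2 was called lower in 2 comparisons, and its median log2 change over all 17 was -0.24. In Del(CBS1) at 120 h it was at 21.9 and 21.1 FPKM beside 28.2, 26.7, 25.3 and 36.8 in wild type (-0.43 ± 0.12, adjusted p = 0.0421, 2.1% of all genes called). In Del(CBS1-5) at 144 h it was at 21.5 in both libraries beside 28.3 and 27.3 (-0.37 ± 0.13, adjusted p = 0.0416). In both, the mutant libraries lay below the controls. The mutant libraries also lay below all controls, without a call, at 96 h in Del(CBS1), Del(CBS1-2), Del(CBS1-5), Del(CBS2) and Del(d1-d4), where they ranged from 19.3 to 21.3 FPKM beside 21.9 to 32.1, and at 120 h in Del(CBS1-2) and Del(CBS1-5), where they ranged from 21.9 to 23.9 beside 25.3 to 36.8. Other TALE cofactors also showed such separation. Mutants of the same stage shared their controls, and the share of all genes without overlap was not counted, so that these separations are not a result about Pknox2. The control of set 2 was the highest at 96 h and 120 h, at 32.1 and 36.8 FPKM. Without it, among controls of the same set, the Del(CBS1) change was -0.31 and not called (adjusted p = 0.282), nor was it called without the filter on low values (-0.43, adjusted p = 0.0596) or with upper-quartile scaling (-0.46, adjusted p = 0.089). The 144 h controls of Del(CBS1-5) were already of its set. With 2 time-course libraries added to them (32.5 and 28.9 FPKM), the Del(CBS1-5) change was -0.44 (adjusted p = 0.00185). With the estimated age as a covariate, the change was -0.19 and not called (adjusted p = 0.652). Without wild-type replicate 1 or 2, which left 1 control library, it was -0.34 or -0.40 and not called.

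Del(d1-d4) and Del(CBS2) showed no call for any of the 8 genes at 96 h or 120 h. In the 2 Del(d1-d4) comparisons, where 1.19% and 1.85% of all genes were called, the log2 changes of the 8 genes lay between -0.24 and 0.60, and their 95% intervals between -0.75 and 1.60. In Del(CBS2), where 0.298% and 0.193% of all genes were called, they lay between -0.29 and 0.26, and their 95% intervals between -1.01 and 1.14.

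Across the 17 mutant comparisons, the targets of HOX-PBX-MEIS complexes were called 9 times (3 higher, 6 lower) and the other TALE genes in 25 of 119 (11 higher, 14 lower). In Del(CBS1-2), Del(CBS1-5) and Ins(2xCBS-d4d8) at 96 h, where Meis1 was lower, none of the 6 targets was called. Of all genes, 4.49%, 14.8% and 27.9% were called there. Of the other TALE genes, Irx2 was called lower in Del(CBS1-5) and Irx1 and Tgif2 lower and Tgif1 higher in Ins(2xCBS-d4d8). The largest count of targets was in Del(CBS1-5) at 144 h, where Hoxb1, Hoxb2, Hoxb4 and Pax6 were lower and 23.7% of all genes were called.

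The genes most like each member were sought by Pearson's r over the 28 group means of log2(FPKM + 0.1), which share control stages and library sets, among named genes outside the list. Meis1 was most like Ypel1 (r = 0.97), Msrb3 (0.96) and the mesenchymal repressor Zeb1 (0.95), and Meis2 like Gucd1 (0.96), Hdac7 (0.95) and Fbxo11 (0.94). Pknox2 was most like the Polycomb gene Cbx2 (0.93), Tnfaip1 (0.88) and the cadherin Cdh2 (0.87). Meis3 reached at most 0.87, with Gpr157, and Pbx4 at most 0.82, with Angptl6. For Pbx2 the nearest was Fignl2 (0.94), for Pbx3 Eif4b (0.93) and for Pknox1 Samd1 (0.94). Within the list, Meis1 and Meis2 had r = 0.91 over the 28 groups, Meis1 and Pbx2 0.85, and Meis1 and Meis3 0.25. Pbx3 ran against Meis1 (-0.57) and Pbx2 (-0.57).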

How the data were processed

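RNA-seq libraries of pooled stembryos were grouped by genotype, stage and series from the sample titles. The authors removed adapters (cutadapt 1.16), mapped the reads to mm10 (STAR 2.7.7a), kept uniquely mapped reads and computed FPKM per gene with Cufflinks 2.2.1, and the deposited FPKM values were used without further scaling. Scaling to mapped fragments makes a value depend on the share taken by other genes. Genes with a mean of at least 1 FPKM in at least 1 group were kept (17098), and limma 3.58.1 (R 4.3.3) was fitted on log2(FPKM + 0.1) in 1 model over 61 libraries and 28 groups, with adjusted p-values per comparison over all genes. The fit was tested on simulated data. All 8 genes are named, and the other TALE genes, targets and marker lists are given by counts, with the 3 genes most like each member. The members, lists, motifs and tests were chosen with earlier results of these data known, and the alternative that joins library-set controls with median-ratio scaling was chosen after seeing the data. Tables hold no counts, so that depth was inferred from the steps of 1 fragment at low values. In set 1, 13.1% to 16.6% of low values lay under 1 fragment, and 0% to 0.478% in set 2. Ages were estimated against the time course over 1000 genes, without Hox genes and members. Replicate numbers were taken to pair the wild-type libraries of 96 h and 120 h: their deviations from the group means correlated with r from 0.56 to 0.89 over 4 numbers, beside a highest r of 0.0945 over the other comparisons. Replicates 1 and 2 correlated as strongly with each other (0.556 and 0.566) as with their own numbers (0.561 and 0.572), so that number does not set them apart. A pairing of wild-type numbers is not stated in the labels, and replicate 4 is of another library set.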

Additional observations from a re-analysis of the deposited data

Results flagged for a closer look

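The change of Meis3 in Del(CBS4) differed between 144 h and 120 h by -0.78 on the log2 scale (limma adjusted p = 0.0257), the effect being 0.62 at 120 h and of the opposite sign at 144 h. It was singled out because the test of the difference itself passed. In the 4 wild-type libraries at 96 h and at 120 h, no library of the 8 genes stood apart from the others by Dixon's criterion: over 16 groups the highest ratio of gap to range was 0.783, under the limit for 4 libraries.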

How the results depend on the processing

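Of 42 called results of the 8 genes, 17 kept their call under every alternative run and 25 under every alternative that kept all replicates, and none of the 42 changed direction. Of the counts of calls, that over the 7 steps (14) was 9 with only the series compared in the fit, and 8 to 14 when 1 time-course replicate was left out. Over the span from 72 h to 168 h (7) it was 6 to 7 when a replicate was left out, and over both control steps (7) it was 5 to 10. The change of Pbx4 from 72 h to 168 h, not called, turned to -0.25 without time-course replicate 2 and was 0.75 without replicate 1. The mutant count (13) was 24 with only the series compared, 22 with a replicate block, 8 to 20 when a wild-type replicate was left out (8 without replicate 1, 20 without replicate 3) and 0 to 13 when a mutant replicate was left out, which left most mutant groups with 1 library that was assumed to vary like the other groups. The count of stage differences (1) was 3 with upper-quartile scaling, 2 with only the series compared, 6 with a replicate block, 0 with controls of 1 library set (with or without median-ratio scaling), 0 with the estimated age as a covariate, and 0 to 3 when a replicate was left out. The causes were not tested. With the replicate block, the control count was 10 and the step count 16. Apart from the wild-type libraries of 96 h and 120 h, same-numbered libraries were treated as sharing only a number, with r between -0.0597 and 0.0945 over the groups compared. Low levels limit Pbx4, at 0.233 to 3.93 FPKM over the 61 libraries, and Meis1 at 72 h, at 0.0928 and 0.204 FPKM.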
